A study of Mus musculus with 42 samples.

Results

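The genes described here form the folding machinery of the endoplasmic reticulum (ER): the channel that takes new secretory proteins into the ER, the enzymes that cleave, glycosylate and fold them, the machinery that removes misfolded chains, and the sensors of the unfolded protein response. They are a list of 47 gene symbols named for these roles; no measured value enters the rule, but the list was drawn up with earlier results of these data known. For 46 of them the Affymetrix array had a probe set assigned to that symbol alone, and where there were several the one with the highest mean was taken. Pdia4 was left out because its only probe set is shared with another symbol. These 46 were read among 22180 genes measured in the same way.

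RNA came from cells of the mouse pylorus (the lower stomach), small intestine and colon, and the study asked which genes mark pyloric stem cells against other gut populations. Every mouse was an untreated adult of at least 7 to 8 weeks, and animals were not selected by sex. In the Lgr5-EGFP-IRES-CreERT2 line (IRES below), whose reporter is driven from the locus of the Wnt target and stem cell gene Lgr5, bright cells (Lgr5Hi) and dim cells (Lgr5Lo) were sorted from the pylorus (4 and 4 arrays), small intestine (2 and 2) and colon (3 and 3), beside whole tissue from each organ (2, 1 and 2) and a small intestinal fraction titled crypt (2). In the Lgr5-EGFP-DTR line (DTR below), which carries the diphtheria toxin receptor at the same locus and received no toxin, pyloric cells were sorted as Lgr5Hi, Lgr5Lo and Lgr5Neg, with 3 arrays each. In wild-type (WT) mice, pyloric cells were sorted with an antibody to the water channel Aqp5 as Aqp5Pos and Aqp5Neg, with 4 arrays each. For the 9 DTR arrays the labels conflict, since their titles give the DTR line and another field gives the IRES line; titles were followed here. Replicates are called biological in the labels. All 42 arrays hold amplified RNA, and their number limits the precision.

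The sorts were checked on the genes behind their gates. Lgr5 averaged 8.73, 6.59 and 4.60 log2 units in DTR Lgr5Hi, Lgr5Lo and Lgr5Neg, was 2.02 ± 0.30 (SE) higher in IRES pyloric Lgr5Hi than Lgr5Lo cells, and was 2.48 ± 0.43 higher in the small intestine. In the colon it was 7.69 against 5.79, a difference that was not called. Aqp5 was 1.63 ± 0.21 higher in Aqp5Pos than Aqp5Neg cells. Whole colon replicate 1 correlated better with whole pylorus (mean r 0.959) than with the other whole colon array (0.908) and so goes against its label; leaving it out changed the number of called members only for Lgr5Hi pylorus against colon, from 6 to 8. The 2 crypt arrays had less Lgr5 than Lgr5Hi cells (4.93 against 8.34), more of the enterocyte phosphatase Alpi (11.96 against 7.30) and less of the Paneth cell protease Mmp7 (7.76 against 11.00). Their labels conflict as well, since the title says crypt and the population field says whole. They are called by their title below.

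Secretory and membrane proteins enter the ER through the Sec61 channel, helped by Sec62, Sec63 and the translocon-associated Ssr proteins, while signal peptidase and the oligosaccharyltransferase process the growing chain. BiP (Hspa5), Grp94 (Hsp90b1) and their J-domain partners fold it, protein disulfide isomerases and the Ero1 oxidases form its disulfide bonds, and the lectins calnexin and calreticulin hold glycoproteins until they are folded. Chains that fail are handed through Edem proteins, Sel1l, Syvn1, Herpud1 and derlins to the proteasome. When unfolded chains accumulate, IRE1 splices Xbp1 RNA, ATF6 is cleaved and PERK signalling raises ATF4 and CHOP (Ddit3). IRE1 beta (Ern2) is the form of IRE1 typical of mucus-secreting epithelium, which includes the stomach, where pit, gland mucous and chief cells all secrete heavily.

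The ER stress response element (ERSE), which is bound by NF-Y and by ATF6 or XBP1, links many of these genes at the level of DNA, and the copies next to genes the results turn on are shown first. Windows of 300 bases, from 250 before to 50 after the gene start, were taken from RefSeq on GRCm38.p6 for the 38 members the table holds. ERSE was searched on both strands as CCAAT and CCACG with any 9 bases between them and was found in 10 of the 38 (26.3%), against 0.137% of 27025 genes with such a window. ERSE-II, searched as ATTGG and CCACG with any 1 base between them, was found in 2 members (5.26%, against 0.0444%). Of other stress elements, TGACGTGG (called UPRE), whose end overlaps the CCACG core on the other strand, was in 0 members (0.714% of genes), and TGATGNAA (called CARE) was in 1, Herpud1 (2.63%, against 4.51%). The members are known stress response genes, several of which served to define these elements, so the shares are descriptive. In the sequences below, given 5′ to 3′ on the gene's strand with 20 bases on each side, capitals mark the CCAAT and CCACG letters or their reverse complements.
Hspa5 (BiP), chr2:34772005-34772063, plus strand: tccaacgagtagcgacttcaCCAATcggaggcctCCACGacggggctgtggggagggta
Hsp90b1 (Grp94), distal copy, chr10:86705618-86705676, minus strand: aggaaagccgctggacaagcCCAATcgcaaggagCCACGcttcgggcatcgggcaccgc
Hsp90b1 (Grp94), proximal copy, chr10:86705513-86705571, minus strand: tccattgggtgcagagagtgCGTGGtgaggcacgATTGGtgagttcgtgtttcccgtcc
Dnajc3 (P58IPK), chr14:118937807-118937865, plus strand: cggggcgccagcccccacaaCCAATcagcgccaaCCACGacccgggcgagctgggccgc
Syvn1 (Hrd1), chr19:6046512-6046570, plus strand: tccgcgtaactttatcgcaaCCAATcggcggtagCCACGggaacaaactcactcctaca
Ero1b, chr13:12565662-12565720, plus strand: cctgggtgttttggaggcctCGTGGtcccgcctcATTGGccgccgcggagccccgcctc
Creld2, chr15:88819500-88819558, plus strand: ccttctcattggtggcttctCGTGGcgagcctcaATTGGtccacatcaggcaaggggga
Pdia6, chr12:17266471-17266529, plus strand: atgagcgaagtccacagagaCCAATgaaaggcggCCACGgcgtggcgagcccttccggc
Herpud1, ERSE-II, chr8:94386357-94386407, plus strand: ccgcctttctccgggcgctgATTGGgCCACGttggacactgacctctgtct

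In Hspa5, Dnajc3, Syvn1 and Pdia6 the element reads CCAAT first on the gene's strand, and in Ero1b and Creld2 it is inverted. Hsp90b1 holds a copy in each orientation. Calr, Canx and Derl3 have an ERSE and Dnajb11 an ERSE-II as well, which makes 12 members with either element. Upstream elements begin 44 to 212 bases before the start, the nearest of them in Syvn1.

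Members were measured on log2 intensities that the authors had summarised and normalised. The median of all values was 3.98, and no member had a group mean below it. Across the 15 groups, DTR Lgr5Hi cells had the highest mean for 20 of the 46 members. The lowest mean fell in small intestinal groups for 32 of them (12 in Lgr5Hi, 10 in crypt, 7 in whole tissue and 3 in Lgr5Lo) and in Aqp5Pos cells for 9. The median member stood 0.414 ± 0.0421 (SD, n = 3) log2 units above its own mean over all arrays in DTR Lgr5Hi cells, and -0.415 ± 0.246 (n = 2) from it in small intestinal Lgr5Hi cells. Each mouse model was sorted on different gates, so differences between models and between gates cannot be told apart in these values. Bulk arrays also cannot tell fewer cells of a type from less RNA per cell.

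Ern2 varied most between groups, from 9.66 in DTR Lgr5Hi to 5.37 in the crypt arrays, and the 3 DTR Lgr5Hi arrays (9.62, 9.61 and 9.74) lay above every other array of the series. Dnajc10 (ERdj5), a reductase that opens disulfide bonds of chains bound for degradation, had the next widest range, 10.03 to 7.02 between the same groups. P4hb, a disulfide isomerase and collagen hydroxylase subunit, ran the other way: it was highest in the crypt arrays (11.53) and lowest in Aqp5Pos cells (8.66). Canx, the membrane-bound lectin chaperone, ranged least, by 0.583 log2 units over the 15 groups.

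**Figure D1:**
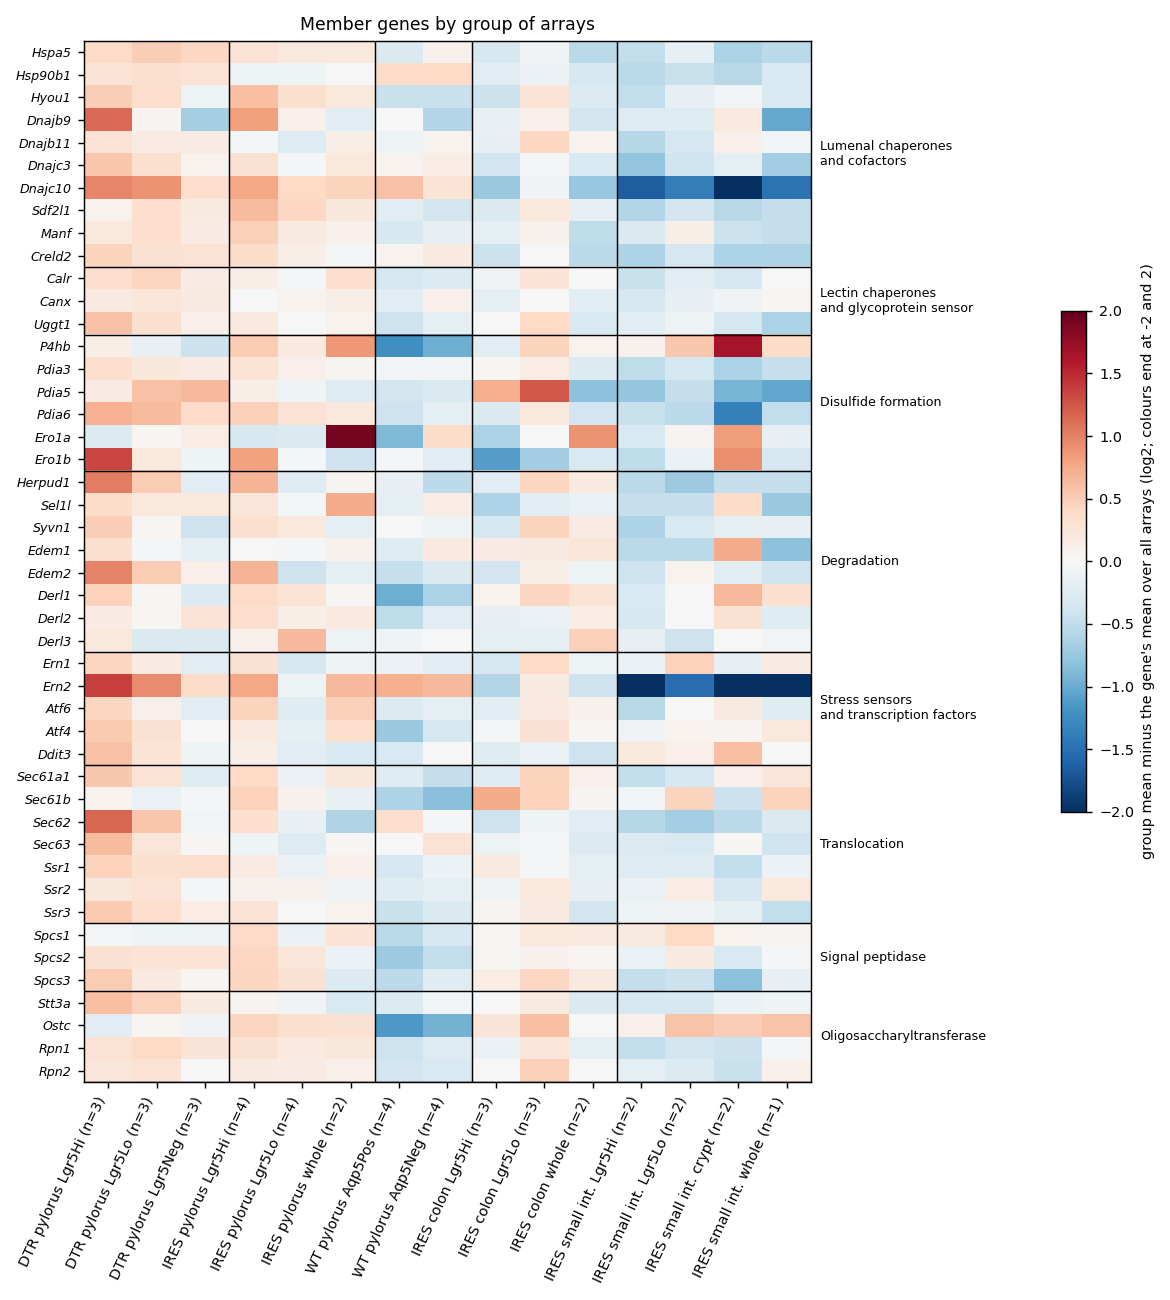
Mean of each of the 46 members (rows, in 8 roles) in each of the 15 groups (columns, with the number of arrays), as the log2 difference from the gene's mean over all 42 arrays; colours end at -2 and 2. By median the DTR Lgr5Hi column is the warmest (0.414) and the small intestinal Lgr5Hi column the coldest (-0.415), and Ern2 and Dnajc10 are darkest in the small intestine.

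Between the extreme gates of the DTR pylorus, all 5 sensors and transcription factors of the list rose in Lgr5Hi cells over Lgr5Neg cells. Much of the translocation and degradation machinery rose with them, while the lumenal chaperones Hspa5 and Hsp90b1 did not pass the test. Limma called 21 of the 46 members higher, where 8.84% of all genes were called higher, and 2 lower, where 9.48% of all genes were (adjusted p under 0.05 over all genes). Of the 46 differences, 38 were above 0, with a median of 0.40 log2 units against 0.02 for all genes. In 28 members every Lgr5Hi array lay above every Lgr5Neg array, as it did in 16.2% of all genes. Without Lgr5Neg replicate 3, 13 members were called, and when all 42 arrays shared 1 estimate of spread, 6 were: Dnajb9, Ero1b, Herpud1, Syvn1, Ern2 and Sec62. Those 6 held their call in each alternative and each fit without 1 array.

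Dnajb9 (ERdj4), a J-domain cofactor of BiP that also represses IRE1, read 9.17, 9.44 and 9.57 in Lgr5Hi and 7.40, 7.68 and 7.67 in Lgr5Neg cells. The groups lay far apart, and the rise was 1.81 ± 0.16 (SE) log2 units, or 3.51-fold (limma adjusted p = 7.31e-06). Ero1b, the oxidase of the Ero1 pair typical of secretory cells, read 6.85, 6.70 and 7.32 against 5.55, 5.67 and 5.39, a rise of 1.42 ± 0.17 or 2.67-fold (adjusted p = 8.7e-05). Both stood above their Lgr5Lo arrays as well. Herpud1, a membrane scaffold of the degradation complex, read 8.75, 9.07 and 8.94 against 7.61, 7.85 and 7.59, a rise of 1.23 ± 0.14 (adjusted p = 4.83e-05). Sec62, which helps short secretory chains into the channel and also serves ER turnover, read 8.67, 8.61 and 8.25 against 7.42, 7.25 and 7.26, a rise of 1.20 ± 0.15 (adjusted p = 0.000136). In neither gene did the groups overlap.

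Among the sensors, Ern2 read 9.62, 9.61 and 9.74 in Lgr5Hi against 8.65, 8.55 and 8.78 in Lgr5Neg cells and rose by 1.00 ± 0.14 (adjusted p = 0.000214). Ern1, the IRE1 form found in most tissues, read 6.80, 7.38 and 6.85 against 6.54, 6.33 and 6.19 and rose by 0.65 ± 0.17 (adjusted p = 0.0145). Ddit3 (CHOP), the transcription factor of prolonged stress, read 6.84, 7.03 and 6.82 against 6.13, 6.14 and 6.41 and rose by 0.67 ± 0.16 (adjusted p = 0.0104). All of them separated the gates without overlap. Atf6 rose by 0.64 ± 0.13 and Atf4 by 0.52 ± 0.13. Of these, Ern2 alone kept its call with the spread of all 42 arrays, and Ern1, Atf6, Atf4 and Ddit3 lost it. Ern1 also lost its call without Lgr5Hi replicate 2 or Lgr5Neg replicate 2 or 3, and Atf4 without Lgr5Hi replicate 2 or Lgr5Neg replicate 3. Arrays of RNA level show neither splicing of Xbp1 nor cleavage of Atf6.

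The chief lumenal chaperone showed no such difference. Hspa5 read 8.87, 8.88 and 8.99 in Lgr5Hi and 8.86, 8.97 and 9.03 in Lgr5Neg cells, with overlapping groups and a difference of -0.04 ± 0.13 (95% interval -0.31 to 0.24). Hsp90b1 gave -0.01 ± 0.12 (-0.28 to 0.25) and Canx -0.01 (-0.32 to 0.30). For these genes the intervals leave out changes the size of those in Dnajb9 or Herpud1. The stress-induced cofactors Sdf2l1 (-0.12), Manf (0.04) and Creld2 (0.15) also missed the threshold. Of the 10 lumenal chaperones and cofactors, 3 rose, Dnajb9, Dnajc10 (0.64 ± 0.13) and Dnajc3 (0.48), the last an inhibitor of PERK. Dnajc3 kept its call in 2 of 6 fits without an array, those without Lgr5Hi replicate 3 or Lgr5Neg replicate 2. Hyou1, a large relative of Hsp70 chaperones, had a difference of 0.60 that just missed the threshold (adjusted p = 0.0509).

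Of the 8 degradation genes 4 rose. Beside Herpud1 these were the ubiquitin ligase Syvn1, at 7.53, 7.63 and 7.74 against 6.88, 6.81 and 6.46 (0.91 ± 0.14, adjusted p = 0.000574), Edem2, which trims mannose to mark failed glycoproteins (0.89 ± 0.15), and Derl1, a component of the exit channel (0.72 ± 0.13). Edem1 (0.53) and Derl3 (0.49) were above 0 without a call, and a second Edem1 probe set gave 0.69 ± 0.12. Translocation contributed 4 of 7: Sec62, the channel subunit Sec61a1 (0.78 ± 0.14), Sec63 (0.62 ± 0.14) and Ssr3 (0.38). The channel's small subunit Sec61b did not pass (0.11 ± 0.15), and the 2 probe sets of Ssr1 disagreed (0.11 ± 0.12 and 0.60 ± 0.15). Spcs3 was the 1 of 3 signal peptidase subunits to rise (0.47) and Stt3a, a catalytic subunit, the 1 of 4 oligosaccharyltransferase genes (0.42). The glycoprotein folding sensor Uggt1 rose by 0.48. These smaller calls were the least firm: Ssr3 lost its call without any 1 of the 6 arrays, Stt3a in each such fit except that without Lgr5Hi replicate 1, and Spcs3 and Uggt1 in 3 of 6, Lgr5Hi replicate 2 and Lgr5Neg replicate 3 among them.

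Disulfide formation was the only one of the 8 roles in which members were called in both directions. Ero1b and P4hb (0.56 ± 0.14) rose, and Pdia5 (-0.49 ± 0.15, adjusted p = 0.0339) and Ero1a (-0.42 ± 0.13, adjusted p = 0.0421) fell. Ero1a, the oxidase induced by low oxygen, read 7.43, 7.50 and 7.21 against 7.84, 7.79 and 7.78. The 2 gates did not overlap, but the gene's other probe set gave -0.14 ± 0.17, and of 6 alternatives 4 ended the Ero1a call. It kept its call in 1 of 6 fits without an array, the one without Lgr5Hi replicate 2. Pdia5 kept its call in 2 of 6, without Lgr5Hi replicate 2 or Lgr5Neg replicate 1, and lost it in the fit over all arrays.

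Cell type markers moved with these gates. Chief cell markers (3 of 3 higher, list mean 11.7 to 12.1 in Lgr5Hi against 8.02 to 8.38 in Lgr5Neg arrays), gland mucous markers (3 of 4 higher, 11.6 to 11.7 against 9.12 to 9.59) and tuft markers (3 of 3 higher, 6.75 to 7.57 against 5.11 to 5.92) were higher in Lgr5Hi cells. Pit markers (4 of 4 lower, 8.02 to 8.99 against 12.3), cycling markers (3 of 3 lower, 6.62 to 7.60 against 8.64 to 9.16) and goblet markers (4 of 5 lower, 4.54 to 4.81 against 6.36 to 7.15) were lower. Markers of plasma cells, which are rich in ER, had a list mean of 3.72 to 3.84 against 3.38 to 3.55; 1 of the 4 measured was called higher, Pou2af1, a coactivator of B cells (5.68 against 4.41), and the joining chain Jchain was near the lowest values in both gates. Acinar markers had 2 of 4 called higher (7.70 to 7.73 against 6.16 to 6.65). Enterocyte markers had 2 of 3 called lower (4.72 to 5.12 against 6.93 to 7.00). Enteroendocrine markers (2 higher and 1 lower of 6) and Paneth markers (1 higher and 1 lower of 4) went both ways. The part of cell makeup in the members' differences was not tested.

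The dim gate fell between the others for most members. Lgr5Hi was above Lgr5Lo and Lgr5Lo above Lgr5Neg in 30 of 46 members (65.2%, against 27.5% of all genes), and the reverse order held in 2 (4.35%, against 25.1%). Cell type markers differed between these gates too. Parietal markers were highest in the dim gate, at 8.45 to 9.05. They read 4.94 to 6.85 in Lgr5Hi and 4.41 to 5.69 in Lgr5Neg arrays, and 2 of 2 were called at each step. In the dim gate pit (11.3 to 11.8), chief (10.2 to 10.9) and gland mucous markers (10.9 to 11.3) lay between the other gates. Their part was not tested. The steps share arrays, so their calls are set side by side only. From Lgr5Lo to Lgr5Hi, limma called 3 members higher, Ero1b (1.11 ± 0.17, adjusted p = 0.00296), Dnajb9 (1.08 ± 0.16, adjusted p = 0.00257) and Sec62 (0.59 ± 0.15, adjusted p = 0.0427), beside 2.02% of all genes. From Lgr5Neg to Lgr5Lo it called 4 higher, Dnajb9 (0.73, adjusted p = 0.0291), Herpud1 (0.72, adjusted p = 0.0151), Ern2 (0.57, adjusted p = 0.0473) and Dnajc10 (0.56, adjusted p = 0.0439), beside 1.57% of all genes.

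Dnajb9 alone was called at both steps, with Lgr5Lo arrays at 8.18, 8.55 and 8.22 between the other gates. Ero1b, at 5.96, 5.88 and 5.68 in Lgr5Lo cells, lay nearer to Lgr5Neg. Dnajc10 lay the other way, at 10.00, 9.94 and 9.90 in Lgr5Lo cells against 9.93, 10.02 and 10.13 in Lgr5Hi cells, which overlapped. In the upper step, Dnajb9 and Ero1b kept their calls in 6 of 6 fits without an array and Sec62 in 2 of 6, having lost it without Lgr5Hi replicate 1 or 2 or Lgr5Lo replicate 2 or 3. In the lower step, leaving out any single array of the 6 gave 0 or 1 calls in place of 4, and Dnajb9 kept its call in 0 of 6 such fits. Neither step had a called member in the fit over all arrays.

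**Figure D2:**
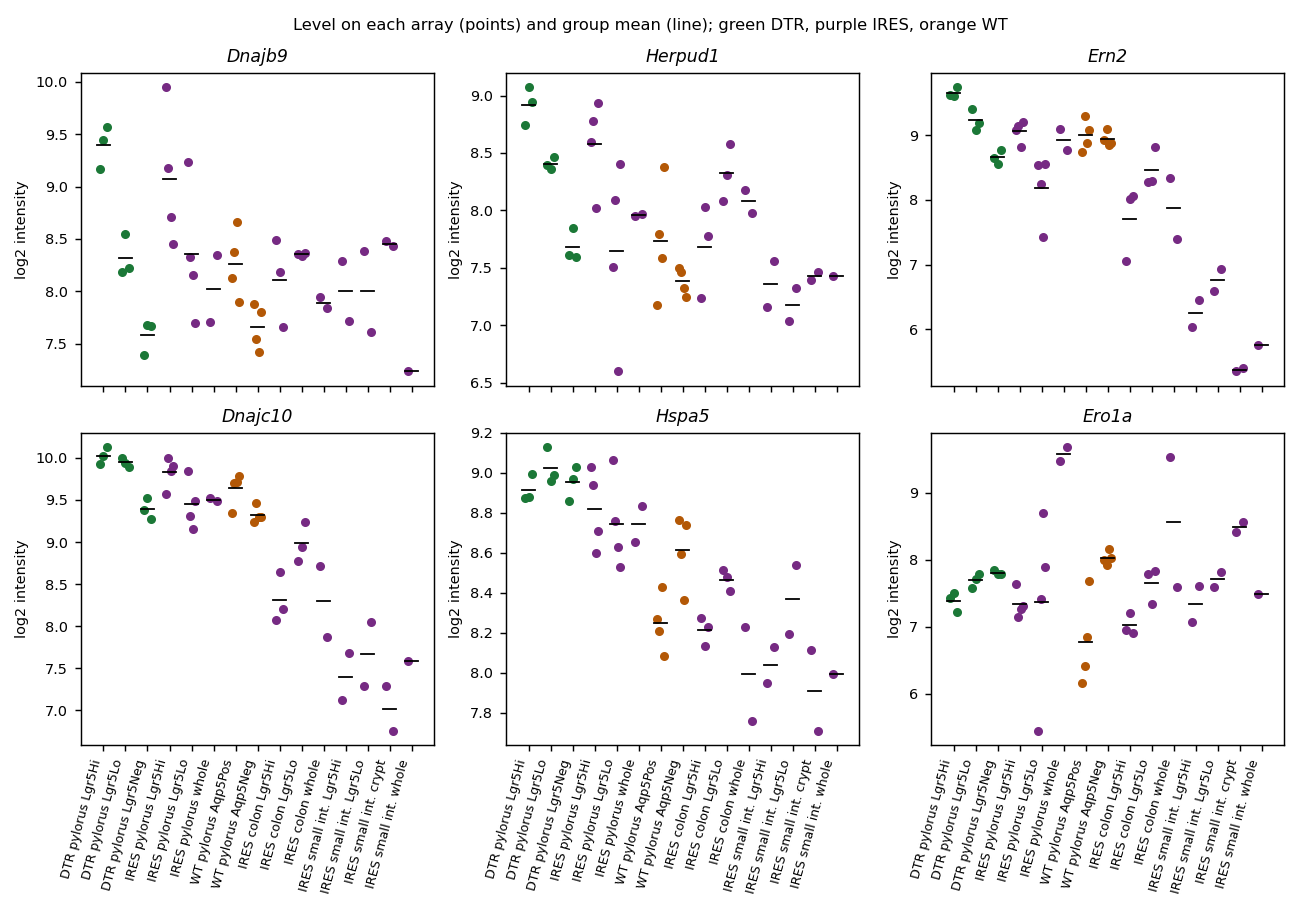
Log2 intensity of Dnajb9, Herpud1, Ern2, Dnajc10, Hspa5 and Ero1a on every array (points; DTR green, IRES purple, WT orange) with the group mean as a line, each panel on its own scale. Dnajb9, Herpud1 and Ern2 step down from DTR Lgr5Hi to Lgr5Neg, Hspa5 stays between 8.86 and 9.13 in all 9 DTR arrays, and Ern2 and Dnajc10 are lowest in the small intestine.

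The second reporter line gave differences mostly of like sign, and none passed in the fit without pairing. In the IRES pylorus, 42 of 46 members were above 0 in Lgr5Hi over Lgr5Lo cells, with a median of 0.23 log2 units against -0.04 for all genes. Without a term for pairing, limma called 0 of them, where 1.49% of all genes were called. At an unadjusted p under 0.05 there were 7 members and 2984 genes. Between DTR Lgr5Hi against Lgr5Neg and this sort, which share no array, 40 of 46 members had the same sign (87.0%, against 60.1% of all genes). With DTR Lgr5Hi against Lgr5Lo, the gates compared in this sort, it was 36 of 46 (78.3%, against 58.9%). Most members lay above 0 in each of these sorts, so counts of like sign follow largely from that. They do not show agreement gene by gene. In the fit with the replicate number as a block, Herpud1 (adjusted p = 0.018) and Edem2 (adjusted p = 0.0239) were called. Leaving out Lgr5Lo replicate 2 gave 1 call and leaving out replicate 4 gave 2.

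Without the block, Edem2 had the largest difference here, 1.09 ± 0.31 (limma adjusted p = 0.0851). It read 7.88, 8.20, 7.33 and 7.63 in Lgr5Hi against 6.49, 7.31, 5.51 and 7.40 in Lgr5Lo cells. Herpud1 followed with 0.93 ± 0.29 (adjusted p = 0.119), at 8.60, 8.78, 8.02 and 8.93 against 7.51, 8.09, 6.60 and 8.40. The gates overlapped in each gene, although the Lgr5Hi array was above the Lgr5Lo array of the same number in 4 of 4 pairs, and Lgr5Lo replicate 3 was the lowest array for both. Ern2 separated the gates, at 9.08, 9.14, 8.82 and 9.20 against 8.54, 8.24, 7.42 and 8.56 (0.87 ± 0.27, adjusted p = 0.113), and 2 members in all did so, beside 2.21% of all genes. Ern1 (0.63 ± 0.22) and Dnajb9 (0.72 ± 0.31) overlapped, and Hspa5 again lay near 0 (0.07 ± 0.17). Ddit3 was at 0.32 ± 0.25. Pit markers (10.7 to 12.2 in Lgr5Hi against 12.2 to 12.5 in Lgr5Lo arrays, 0 of 4 called) and parietal markers (8.05 to 9.86 against 10.6 to 11.4, 0 of 2 called) were at lower levels in the bright gate. Gland mucous markers were at higher levels (11.0 to 11.7 against 9.75 to 10.5, with 1 of 4 called, Aqp5). Cycling markers (7.04 to 7.52 against 7.63 to 8.58) had 1 of 3 called lower, Birc5. Enteroendocrine markers (8.18 to 8.88 against 9.29 to 10.2) had 1 of 6 called lower, Ghrl. Acinar markers (7.64 to 7.93 against 7.40 to 7.87) went both ways, with 2 of 4 above 0, by up to 1.69, and 2 below. Of these 4, Prss1 was called lower and none was called higher. Chief markers read 10.8 to 11.7 against 9.54 to 11.2 (0 of 3 called). Tuft markers, higher in the DTR bright gate, had 0 of 3 above 0 here (5.01 to 7.50 against 5.82 to 7.63). Goblet markers had 0 of 5 above 0 (6.19 to 8.63 against 6.85 to 9.36). Enterocyte markers had 0 of 3 above 0 (5.50 to 7.79 against 7.58 to 9.27). No marker of these 3 lists was called. The part of these cell types was not tested.

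Sorting wild-type pylorus by Aqp5 gave another picture. Aqp5Pos cells had 1.96 ± 0.23 more Lgr5 than Aqp5Neg cells, yet 35 of the 46 members were below 0, with a median of -0.15 against 0.06 for all genes. Limma called 1 member, Ero1a, which fell, where 2.25% of all genes were called lower. At an unadjusted p under 0.05 there were 5 members and 4356 genes. In 2 members every Aqp5Pos array lay above every Aqp5Neg array (5.84% of all genes), and in 3 every one lay below (6.68%). With quantile normalisation 26 members were below 0, the median was -0.01, no member was called, and the share of all calls that were higher went from 19.5% to 30.1%. Against DTR Lgr5Hi and Lgr5Neg, 17 of 46 members had the same sign (37.0%, against 60.0% of all genes). Against DTR Lgr5Hi and Lgr5Lo it was 21 of 46 (45.7%, against 60.3%). These counts too follow largely from the side of 0 on which most members lay in each sort.

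Ero1a read 6.16, 6.42, 6.84 and 7.68 in Aqp5Pos and 7.99, 7.91, 8.16 and 8.02 in Aqp5Neg cells, a difference of -1.25 ± 0.28 (adjusted p = 0.0347). Aqp5Pos replicate 4 stood nearest to the other gate, and the call remained in 1 of 8 fits without an array, the one without that replicate. The gene's other probe set gave -0.91 ± 0.21. Dnajb9 went the opposite way, at 8.13, 8.38, 8.66 and 7.90 against 7.88, 7.54, 7.42 and 7.80, with no overlap and no call (0.60 ± 0.20, adjusted p = 0.132). Sec62 also separated the gates without a call, at 7.61, 7.65, 7.79 and 7.77 against 7.54, 7.19, 7.32 and 7.26 (0.38, adjusted p = 0.219). The sensors gave no such separation: Ern2 was at 0.06 ± 0.18, Ern1 at 0.09 ± 0.24 and Ddit3 at -0.31 ± 0.20. Hspa5 was at -0.37 ± 0.17 (adjusted p = 0.253). Parietal markers (2 of 2 lower, 5.54 to 8.00 in Aqp5Pos against 9.37 to 10.9 in Aqp5Neg arrays), pit markers (4 of 4 lower, 10.3 to 11.2 against 12.1 to 12.2) and tuft markers (3 of 3 lower, 4.23 to 4.53 against 5.52 to 5.81) fell with this sort. Gland mucous markers, Aqp5 itself among them, rose (3 of 4 higher, 10.9 to 11.2 against 9.69 to 9.99). Chief markers went both ways (list mean 10.4 to 10.9 against 9.94 to 10.7). Of the 3, 2 were above 0, with 1 called higher, and 1 was below 0 at -0.65 without a call. Their part was not tested.

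**Figure D3:**
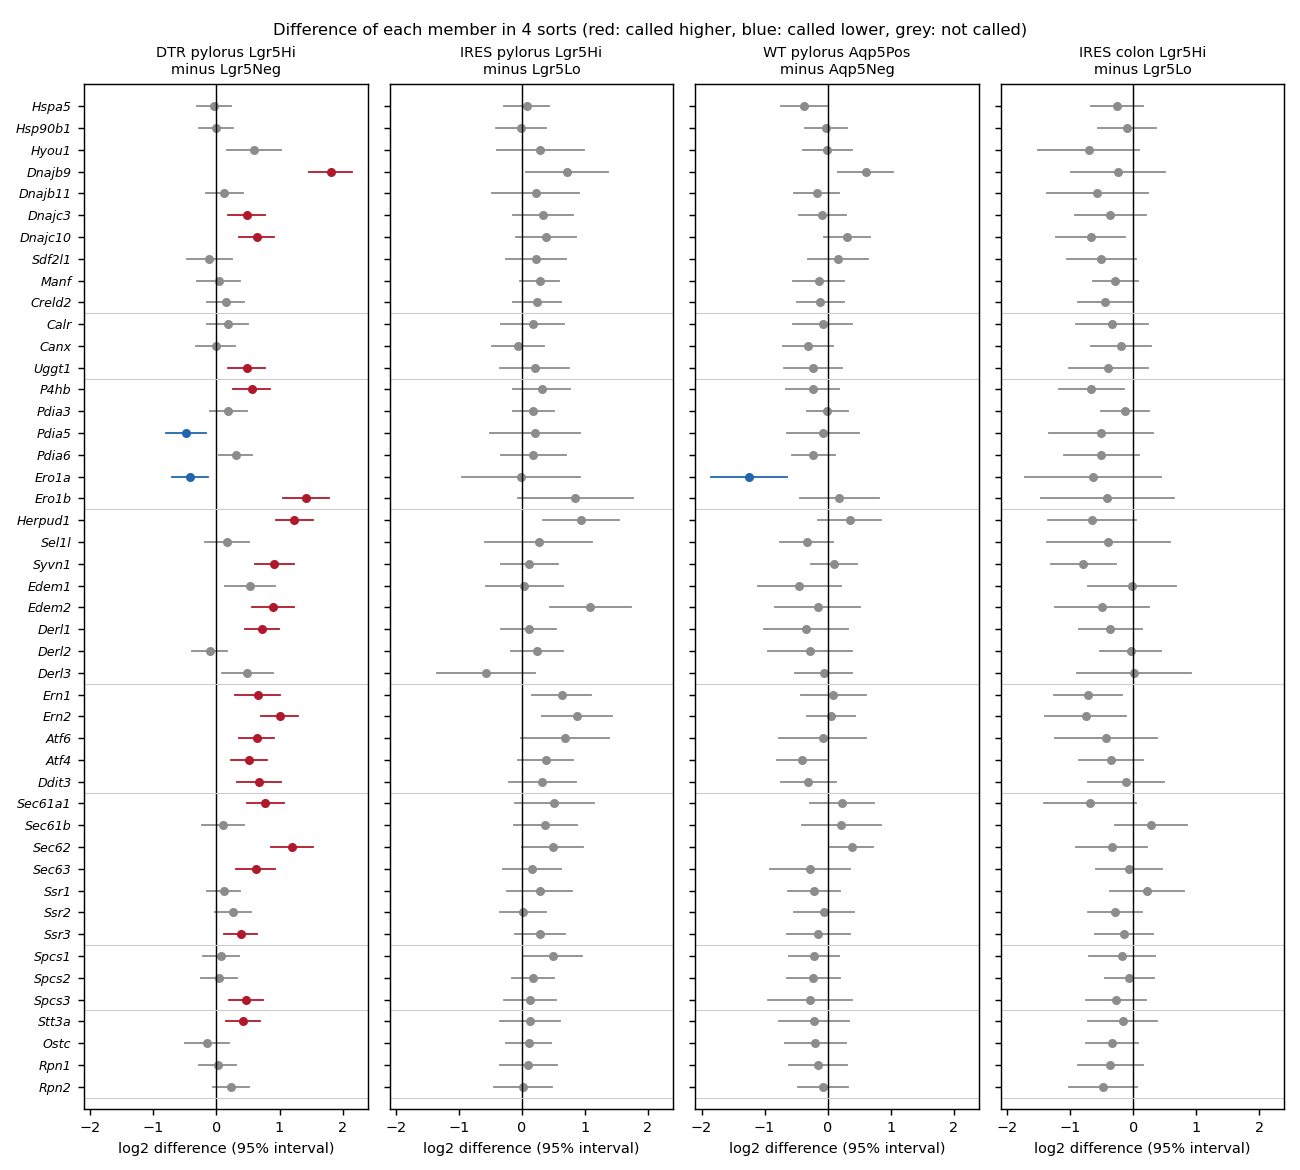
Log2 difference of each member with its 95% interval in 4 sorts: DTR pylorus Lgr5Hi minus Lgr5Neg, IRES pylorus Lgr5Hi minus Lgr5Lo, WT pylorus Aqp5Pos minus Aqp5Neg and IRES colon Lgr5Hi minus Lgr5Lo (red called higher, blue called lower, grey not called). Points lie mostly to the right of 0 in both pyloric Lgr5 sorts (38 and 42 of 46) and mostly to the left in the Aqp5 sort and the colon (35 and 43 of 46).

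In the intestine the bright gate stood below the dim gate. In the colon, 43 of 46 members were lower in Lgr5Hi than Lgr5Lo cells, with a median of -0.36 against 0.00 for all genes, and 24 had every Lgr5Hi array below every Lgr5Lo array, as did 8.63% of all genes. Limma called 0 members and 0 of all 22180 genes (0%) in this sort. At an unadjusted p under 0.05 there were 6 members and 1000 genes. Syvn1 was at -0.79, Ern2 at -0.76, Ern1 at -0.71, Dnajc10 at -0.68, P4hb at -0.66 and Creld2 at -0.44. Ern2 read 7.05, 8.01 and 8.06 in Lgr5Hi against 8.28, 8.29 and 8.82 in Lgr5Lo cells. Lgr5Hi replicate 1 was the lowest array for Ern2 and, at 5.71 against 6.44 to 7.13 elsewhere, for Ern1. Goblet markers, of cells with a large ER, read 10.4 to 11.5 in Lgr5Hi against 12.0 to 12.2 in Lgr5Lo arrays (0 of 5 called), and colonocyte markers 4.48 to 9.71 against 9.50 to 10.2. Their part was not tested.

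In the small intestine 37 of 46 members were below 0, the median was -0.22, and 0 members were called, beside 0.185% of all genes. No member had an unadjusted p under 0.05, with 2 arrays in each gate. Hspa5 was at -0.33 ± 0.24 and Ern2 at -0.52 ± 0.38. Goblet markers read 8.31 to 10.3 in Lgr5Hi against 10.1 to 11.5 in Lgr5Lo arrays there. Enterocyte markers read 7.54 to 9.80 against 10.3 to 10.7, and enteroendocrine markers 7.01 to 7.27 against 8.38 to 8.78. Paneth markers were near level (11.8 to 12.0 against 11.7 to 11.8). The part of these cell types was not tested either.

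The difference between organs in the bright-minus-dim change was tested directly. It was above 0, toward the pylorus over the colon, in 45 of 46 members, with a median of 0.60 against -0.03 for all genes. Limma called 0 of them, beside 0.225% of all genes, and 14 members and 1866 genes had an unadjusted p under 0.05, all in the fit without pairing. With the replicate number within an organ as a block, Herpud1 (adjusted p = 0.0263) and Ern1 (adjusted p = 0.0439) were called. Without the block, Ern2 had the largest difference, 1.63 ± 0.41 (adjusted p = 0.119), followed by Edem2 and Herpud1 at 1.58 each (adjusted p = 0.221 and 0.175) and Ern1 at 1.34 ± 0.34 (adjusted p = 0.122). The IRES pylorus and colon sorts, which share no array, had the same sign in 5 of 46 members (10.9%, against 49.8% of all genes). With most members above 0 in the pylorus and below 0 in the colon, so low a count follows largely from those sides.

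Bright cells of the pylorus stood above bright cells of the intestine, and Hspa5 was among the genes that rose over the small intestine. Against the small intestine, 44 of 46 members were above 0, with a median of 0.67 against 0.08 for all genes, and limma called 13 higher, where 4.67% of all genes were called higher. Of the 10 lumenal chaperones and cofactors 6 rose: Hspa5, Dnajc10, Sdf2l1, Dnajc3, Creld2 and Manf. Without small intestinal Lgr5Hi replicate 1 the number called was 2, and without replicate 2 it was 7, each time with 1 array left in that gate.

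Ern2 read 9.08, 9.14, 8.82 and 9.20 in the pylorus against 6.04 and 6.45 in the small intestine, a rise of 2.82 ± 0.33 (adjusted p = 3.61e-06). Dnajc10 read 9.57, 10.00, 9.84 and 9.91 against 7.13 and 7.68, a rise of 2.43 ± 0.28 (adjusted p = 3.52e-06). Hspa5 read 9.03, 8.94, 8.60 and 8.71 against 7.95 and 8.13, a rise of 0.78 ± 0.21 (adjusted p = 0.0163). Every pyloric array was above both intestinal arrays in these genes. Herpud1 (1.22 ± 0.36), Sdf2l1 (1.21 ± 0.28), Dnajc3 (1.09 ± 0.28) and Creld2 (0.98 ± 0.22) rose as well, as did Syvn1 (0.94), Pdia6 (0.92), Spcs3 (0.92), Sec62 (0.91), Pdia3 (0.78) and Manf (0.76). Paneth cell markers read 11.8 to 12.0 in the intestinal Lgr5Hi arrays and 4.85 to 7.97 in the pyloric ones (4 of 4 lower in the pylorus). Gastric markers moved the other way: pit (4 of 4 higher, 10.7 to 12.2 against 3.90 to 4.11), gland mucous (4 of 4, 11.0 to 11.7 against 4.09 to 4.39) and chief markers (3 of 3, 10.8 to 11.7 against 5.19 to 5.40) were higher in the pylorus. Their part was not tested.

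Against the colon, 42 of 46 members were above 0 (median 0.37) and limma called 6 higher, where 2.90% of all genes were called higher. Ero1b read 6.26, 7.05, 5.56 and 6.84 in the pylorus against 4.58, 4.50 and 4.48, a rise of 1.90 ± 0.48 (adjusted p = 0.0143). Dnajc10 rose by 1.52 ± 0.25 (adjusted p = 3e-04) and Ern2 by 1.35 ± 0.29 (adjusted p = 0.00407), the latter from 7.05, 8.01 and 8.06 in the colon. The other calls were the cofactors Sdf2l1 (0.93 ± 0.25), Creld2 (0.80 ± 0.20) and Manf (0.67 ± 0.16). Hspa5 just missed (0.61 ± 0.19, adjusted p = 0.0518), and Ddit3 (0.36 ± 0.27) and Ern1 (0.63 ± 0.24) were not called. Without pyloric Lgr5Hi replicate 2 the count was 3, and without replicate 3, the lowest array for Ero1b, Sdf2l1 and Creld2, it was 13. Goblet markers read 6.19 to 8.63 in the pyloric and 10.4 to 11.5 in the colonic arrays (5 of 5 lower in the pylorus), while pit (4 of 4), gland mucous (4 of 4) and chief markers (3 of 3) were higher in the pylorus. Their part was not tested.

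Fewer members were called between organs in dim cells. Against the small intestine, Dnajc10 (1.78 ± 0.28, adjusted p = 0.000184) and Ern2 (1.42 ± 0.33, adjusted p = 0.00712) were the 2 members called higher in the pylorus, beside 3.74% of all genes; without small intestinal Lgr5Lo replicate 1 the count was 1. Dnajc10 and Ern2 were thus called in pylorus over small intestine in both gates. In dim cells the share of members called higher was 4.35%, near that of all genes. Against the colon 30 of 46 members were below 0, and the 1 call was Pdia5, which was lower in the pylorus at 6.53, 7.86, 6.93 and 7.75 against 8.45, 8.52 and 8.82 (-1.33 ± 0.37, adjusted p = 0.0327), where 3.78% of all genes were called lower. Without pyloric Lgr5Lo replicate 4 that count was 3, and without pyloric replicate 1 or 3 or any of the colonic Lgr5Lo arrays it was 0.

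**Figure D4:**
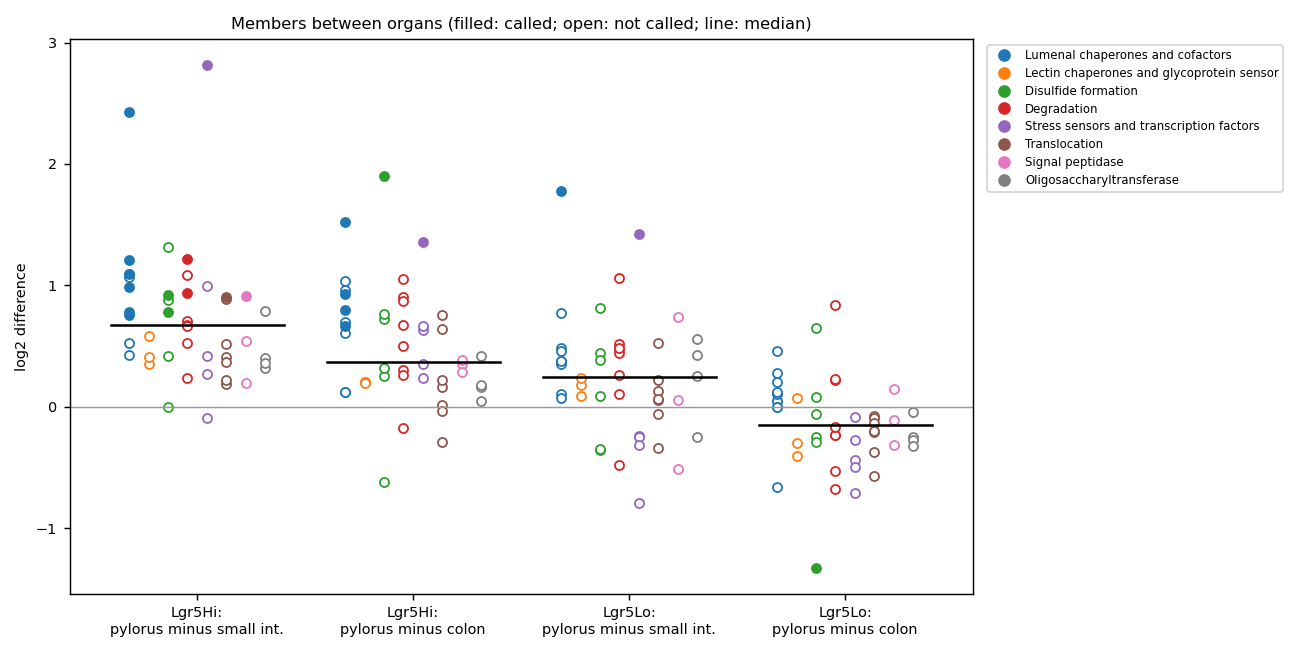
Log2 difference of each member between organs, pylorus minus small intestine and pylorus minus colon, in Lgr5Hi and Lgr5Lo cells of the IRES line (points coloured by role, filled where called, with the median as a line). The median falls from 0.67 and 0.37 in bright cells to 0.25 and -0.15 in dim cells, and Ern2 and Dnajc10 are the 2 highest points in both comparisons with the small intestine.

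Within the small intestine, 3 of 46 members (6.52%) were called higher in the crypt arrays than in Lgr5Hi cells. That share was near the 6.47% of all genes called higher. P4hb read 11.44 and 11.62 against 9.60 and 10.34, a rise of 1.56 ± 0.30 (adjusted p = 0.00103). Edem1 (1.28 ± 0.41, adjusted p = 0.042) and Derl1 (0.95 ± 0.30, adjusted p = 0.0353) also rose. Without Lgr5Hi replicate 1 no member was called, and without either crypt array 1 was. Ern2 went down to 5.34 and 5.40 from 6.04 and 6.45, with no overlap and no call (-0.87 ± 0.38). Enterocyte markers (1 of 3 higher, 11.5 to 11.6 against 7.54 to 9.80) and T cell and myeloid markers (2 of 3 higher, 4.95 to 4.96 against 3.25 to 3.62) were higher in the crypt arrays. List means of fibroblast markers (5.04 to 5.08 against 3.78 to 3.86, with Dcn at 6.38 against 3.27) and goblet markers (10.8 to 10.9 against 8.31 to 10.3) were also higher. Paneth (10.0 to 10.6 against 11.8 to 12.0) and cycling markers (6.81 to 7.46 against 9.02 to 9.05) were lower by list mean. Their part was not tested.

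The ERSE and ERSE-II letters were set beside the differences. Of the 12 with an element, 4 rose in DTR Lgr5Hi over Lgr5Neg cells (Ero1b, Herpud1, Syvn1 and Dnajc3), with a median of 0.24. Of the 25 with a window but no element 12 rose and 2 fell, with a median of 0.38. Among all genes 8.84% were called higher there and 9.48% lower. Dnajb9, which rose most, has no element in its window, and Hspa5 and Hsp90b1, which have the elements shown above, lay near 0. In Lgr5Hi pylorus against small intestine, 6 of the 12 rose (Hspa5, Creld2, Pdia6, Herpud1, Syvn1 and Dnajc3, with a class median of 0.85). Of the 25, 4 rose (median 0.52), where 4.67% of all genes were called higher. In the colon sort the medians were -0.38 and -0.34. The 9 members with no window had 5 called higher in the DTR comparison (median 0.60) and 3 in pylorus against small intestine (median 0.89). Their colon median was -0.36. No test was made between these classes, and absence of the letters from a window says nothing of factors bound elsewhere.

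Other genes of the same pathways, 119 measured of 127 listed, were read beside the members. Between DTR Lgr5Hi and Lgr5Neg cells 46 of the 119 rose and 5 fell, where 8.84% and 9.48% of all genes did. By list, 8 of 13 further sensors and transcription factors rose, 10 of 18 genes of ER exit and retrieval (1 fell), 7 of 15 of degradation, 7 of 17 of oxidative folding, 6 of 12 further chaperones, 2 of 13 of targeting, 2 of 15 of glycosylation, and 4 of 16 targets of ATF4 and CHOP (4 fell). Nupr1, a stress-induced chromatin protein, had the largest difference (3.09 ± 0.20), followed by the COPI coat gene Copz2 (2.80 ± 0.17), Creb3l4 (2.42 ± 0.14), an ER-bound transcription factor of the ATF6 kind, the ER calcium binder Rcn1 (2.24 ± 0.29), the lipoprotein receptor Vldlr (1.83 ± 0.15), an ATF4 target, and Creb3l1 (1.62 ± 0.13). Xbp1, the splicing target of IRE1, rose by 1.25 ± 0.14 (adjusted p = 4.11e-05). Agr2, the disulfide isomerase needed for mucin, did not pass (0.19 ± 0.12, adjusted p = 0.367).

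Creb3l4 was the pathway gene called most often, in 5 of the 7 sorts within an organ. Outside the DTR gates it rose in IRES pyloric Lgr5Hi over Lgr5Lo cells (1.74 ± 0.25, adjusted p = 0.00136), in Aqp5Pos over Aqp5Neg cells (0.97 ± 0.21, adjusted p = 0.0327), in pyloric over colonic Lgr5Hi cells (2.00 ± 0.26) and in the difference between the pyloric and colonic changes (2.39 ± 0.37, adjusted p = 0.0156). The IRES pyloric sort called 2 pathway genes higher, with the signal recognition particle gene Srp9 (0.68 ± 0.17), and 1 lower, the cystine transporter Slc7a11 (-1.59 ± 0.37), where 0.604% of all genes were called higher and 0.884% lower. The Aqp5 sort called 2 higher, Creb3l4 and Nupr1 (1.36 ± 0.32), and 0 lower, where 0.546% of all genes were called higher and 2.25% lower, and the colon sort called 0 of 119. Xbp1 was at 0.46 ± 0.25 in the IRES pylorus, 0.15 ± 0.19 in the Aqp5 sort and -0.59 ± 0.29 in the colon, with no call.

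Between organs, Lgr5Hi cells of the pylorus had 33 of 119 pathway genes higher and 3 lower than those of the small intestine, where 4.67% of all genes were called higher and 7.74% lower. Against the colon 15 were higher and 1 lower, where 2.90% of all genes were called higher and 4.22% lower. Against the small intestine Creb3l1 (3.77 ± 0.41), Creb3l4 (3.16 ± 0.30), Copz2 (2.12 ± 0.38), Xbp1 (1.91 ± 0.31), the COPII coat gene Sec24d (1.90 ± 0.38) and Agr2 (1.27 ± 0.18) rose, and Agr3, a relative of Agr2, fell by 4.35 log2 units. Against the colon the largest were the ER cyclophilin Ppic (3.95 ± 0.50), the asparagine synthetase Asns (2.47 ± 0.28), an ATF4 target, and Creb3l4. Xbp1 rose by 1.15 ± 0.27 there, Agr3 fell (-1.96 ± 0.32), and Agr2 did not pass (0.18 ± 0.16).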

How the data were processed

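RNA of 42 samples was amplified and hybridised to Affymetrix arrays. Per the submitters' processing notes, R 3.2.3, limma 3.26.8, RMA, oligo and Partek were used; their order is not given in the sources used here. The deposited values are log2 intensities per probe set, already summarised and normalised by the authors (41345 probe sets, values 0.574 to 13.6, array medians 3.82 to 4.25), and were not renormalised. A platform annotation gave 1 symbol for 23521 probe sets, several for 1814 and none for 16010; the probe set of highest mean stood for a gene. No 2 arrays correlated above 0.987.

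Each mouse model was fitted alone in limma 3.58.1 (R 4.3.3), with 1 mean per group, empirical Bayes moderation and Benjamini-Hochberg adjustment over 22180 genes. This main fit had no term for pairing, also where arrays paired by number. Calls were made where the adjusted p was under 0.05, and errors after ± are standard errors unless SD is written. Pairing by replicate number was checked on correlations of deviations from group means: same-numbered pyloric (0.104 to 0.296) and colonic (0.136 to 0.242) IRES arrays paired, DTR (-0.112 to 0.154) and WT (-0.0232 to 0.165) arrays did not, and 2 small intestinal pairs (0.373) were too few to judge.

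The 47 members, the pathway and marker lists and the tests were chosen with earlier results of these data known. Any member could be named; those given in full in a comparison were called, without overlap, up to 6 by size of difference, with Ern1, Ern2, Hspa5 and Ddit3; members singled out beyond that were chosen after their values were seen. Of pathway genes, up to 6 called ones by size, with Xbp1 and Agr2, were named. The script was tested on simulated data. Alternatives were 1 fit over all arrays, the replicate block, an intensity trend with a robust prior, the mean over probe sets, quantile normalisation, a filter on dim genes, omission of whole colon replicate 1, and leaving out each array. Promoter windows were from RefSeq (GRCm38.p6).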

Additional observations from a re-analysis of the deposited data

Results flagged for a closer look

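Dixon's gap test in groups of 4 arrays at its 95% critical value singled out 10 of 184 pairs of member and group, and chance gives about 1 in 20. No explanation was tested. In IRES pyloric Lgr5Hi cells, Dnajb11, a J-domain cofactor of BiP, was low on replicate 3 (7.53, others 8.30 to 8.43). Pdia3, the disulfide isomerase of the lectin cycle, was low on the same array (10.41, others 10.60 to 10.64). P4hb was high on replicate 4 (10.63, others 10.30 to 10.33).

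In IRES pyloric Lgr5Lo cells, replicate 3 was low for Hyou1 (6.89, others 8.19 to 8.23) and for Sel1l, the adaptor of the Syvn1 ligase (5.97, others 8.10 to 8.32). Replicate 2 was low for Ssr2 (9.96, others 10.41 to 10.51) and replicate 1 for Ssr3 (7.19, others 8.12). In Aqp5Neg cells Dnajc3 was low on replicate 2 (9.51, others 9.70 to 9.72), Edem2 was high on the same array (7.03, others 6.71 to 6.72), and Canx was high on replicate 3 (10.55, others 10.35 to 10.37).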

How the results depend on the processing

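Over all alternatives no called member reversed its direction in the comparison that called it (549 tests kept the call and 151 lost it). Members without a call did change sign: with quantile normalisation 20 rather than 11 were above 0 in the Aqp5 sort, and 40 rather than 38 for DTR Lgr5Hi against Lgr5Neg. Numbers of called members that moved by over 1.5 times were as follows. With 1 fit over all 42 arrays, DTR Lgr5Hi against Lgr5Neg gave 6 (23), both smaller DTR steps 0 (3 and 4), the IRES pylorus 3 (0), the Aqp5 sort 0 (1), Lgr5Hi pylorus against colon 16 (6), Lgr5Lo pylorus against colon 2 (1) and against small intestine 5 (2), and the difference between pyloric and colonic changes 3 (0). With the replicate block, the IRES pylorus gave 2, the difference between changes 2, and Lgr5Lo pylorus 3 against colon and 4 against small intestine, although numbers did not pair arrays between organs. The block moved no other number by over 1.5 times. With quantile normalisation, DTR Lgr5Hi against Lgr5Lo gave 6, the IRES pylorus 1, the Aqp5 sort 0, Lgr5Hi pylorus against colon 11 and Lgr5Lo pylorus against small intestine 4. DTR Lgr5Hi against Lgr5Lo gave 7 with the trend and robust prior and 5 with the filter on dim genes. These counts, and those below without 1 array, stand without the share of all genes called in the same setting. A change in the members therefore cannot be told from a change over all genes. The causes were not tested.

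Leaving out 1 array at a time gave 13 to 20 for DTR Lgr5Hi against Lgr5Neg, 2 to 3 against Lgr5Lo, and 0 to 1 for Lgr5Lo against Lgr5Neg. It gave 0 to 2 in the IRES pylorus, 0 to 1 in the Aqp5 sort, and 0 in the colon, in the small intestine and for the difference between changes. For Lgr5Hi pylorus it gave 3 to 13 against colon and 2 to 16 against small intestine. For Lgr5Lo pylorus it gave 0 to 3 against colon and 1 to 3 against small intestine, and for crypt 0 to 2. Such fits leave 1 array in some groups, which is assumed to vary like the others. Groups of 2 to 4 arrays and 1 probe set per gene limit what could be called.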
